A study of Homo sapiens with 6 samples.

Results

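Complex II, complex III and the ATP synthase are assemblies of the mitochondrial inner membrane, and 38 nuclear genes for their subunits, the ATP synthase inhibitor and their assembly factors were followed here in a pair of cybrids. The genes were chosen by name, each complex is described apart, and 35 of the 38 were measured, by 77 probe sets, among 19775 genes on the arrays. SDHB, UQCRFS1 and UQCRH were not analysed here. UQCRH was left aside because its probe set also names a second gene. A cybrid joins a nucleus from one cell line with the mitochondria of another. Both cybrids had the nucleus of 143B, an osteosarcoma line, taken in a form without mitochondrial DNA. The 10A/143B cybrid received mitochondria from enucleated MCF10A, a non-cancerous breast epithelial line, and the 468/143B cybrid received them from enucleated MDA-MB-468, a metastatic breast cancer line. Donor cells were treated overnight with actinomycin D and fused by polyethylene glycol, and fused cells of both kinds were kept in bromodeoxyuridine without uridine. Each cybrid was measured on 3 Affymetrix arrays, from RNA extracted in triplicate. Whether a cybrid was 1 clone or a pool, and whether the extractions came from separate cultures, is not given in the sources used here, so p-values measure only the spread between these arrays.

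Complex II, succinate dehydrogenase, oxidises succinate in the citric acid cycle and passes the electrons to coenzyme Q, and it is encoded wholly in the nucleus. Complex III takes electrons from reduced coenzyme Q to cytochrome c and pumps protons, and its cytochrome b is encoded in mitochondrial DNA. The ATP synthase lets the protons back through a rotating ring of c subunits and makes ATP in its F1 head, and its ATP6 and ATP8 subunits are also encoded in mitochondrial DNA. In these cybrids the subunits from the nucleus therefore share the 143B genome, while their mitochondrially encoded partners come from different donors.

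Median intensity was 21.6 to 24.4 on the 10A/143B arrays and 20.3 to 21.3 on the 468/143B arrays. In both cybrids replicates 2 and 3 were near duplicates. Their log2 values differed with an SD of 0.08 to 0.09, against 0.26 to 0.29 for either of them and replicate 1, over probe sets with a mean log2 level of at least 8. They were therefore averaged to 1 sample, and the test compared 2 samples with 2. ACTB, whose 3′ signal over its 5′ signal tells of RNA integrity, gave ratios between 1.59 and 1.92 for 10A/143B and between 1.18 and 1.67 for 468/143B. The 1.18 was 468/143B replicate 1, and replicates 2 and 3 had 1.65 and 1.67. The same ratio of GAPDH lay between 0.93 and 1.01 for 10A/143B and between 0.97 and 1.07 for 468/143B. Of 5 measured epithelial markers of MCF10A, LAMB3 was bright in both cybrids and made up most of their summed intensity. KRT5, a keratin of MCF10A, stood at the lowest value of the array on all 3 10A/143B arrays, and 0 of the 5 passed the limma threshold used below (0 also at an unadjusted p under 0.05). They summed to intensities between 686.3 and 945 on the 10A/143B arrays and between 570 and 707 on the others. Of 8 MDA-MB-468 markers, KRT8 and CLDN7 were lower in 10A/143B and 0 were higher (4 lower and 1 higher with the replicate number as a block, summed intensity 6596 to 6959 against 7372 to 8290). KRT18 made up most of this sum. CLDN7 was near the floor, with 1, 1 and 8.06 in 10A/143B and 11.2, 15.0 and 20.1 in 468/143B. The 10A/143B arrays were all lower for 4 of the 8 and all higher for 2, EPCAM and EGFR, which did not pass (log2 0.40 and 0.54, limma adjusted p = 0.400 and 0.0609). Of 7 markers of 143B, FN1, SPARC and TK1 were lower and 0 higher (summed intensity 10653 to 11431 against 11998 to 13287). The part of these differences in the results that follow was not tested.

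Most of the 35 genes differed little between the cybrids. The assembly factors of complex III LYRM7, UQCC1 and TTC19 were higher in 10A/143B, and UQCRC1, BCS1L, SDHAF2 and ATP5F1D were lower. The remaining 28 did not pass the threshold of an adjusted p of 0.05 (limma, Benjamini-Hochberg over all genes). Among all genes 22.7% passed, 13.8% higher and 8.90% lower. The members are bright on these arrays, however, since 31 of 35 had a mean level of at least 8 on the log2 scale. Among the 5711 genes that bright, 47.7% passed, 27.7% higher and 20.0% lower. The 7 of 35 members lie below both of these shares, and without the intensity trend in the fit LYRM7 and UQCC1 passed and the other 5 did not. The median log2 difference of the members, 10A/143B minus 468/143B, was -0.12, with a range from -0.63 to 1.09, beside -0.02 for all genes and 0.03 for the bright ones. With the replicate number as a block 13 members passed, 4 higher and 9 lower, against 31.6% of all genes, 17.8% higher and 13.8% lower, and 60.6% of the bright ones. On 6 separate arrays 17 passed, 6 higher and 11 lower, against 35.6% of all genes, 19.9% higher and 15.7% lower, and 65.9% of the bright ones. In both of these fits the members' share was above that of all genes and below that of the bright ones.

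**Figure D1:**
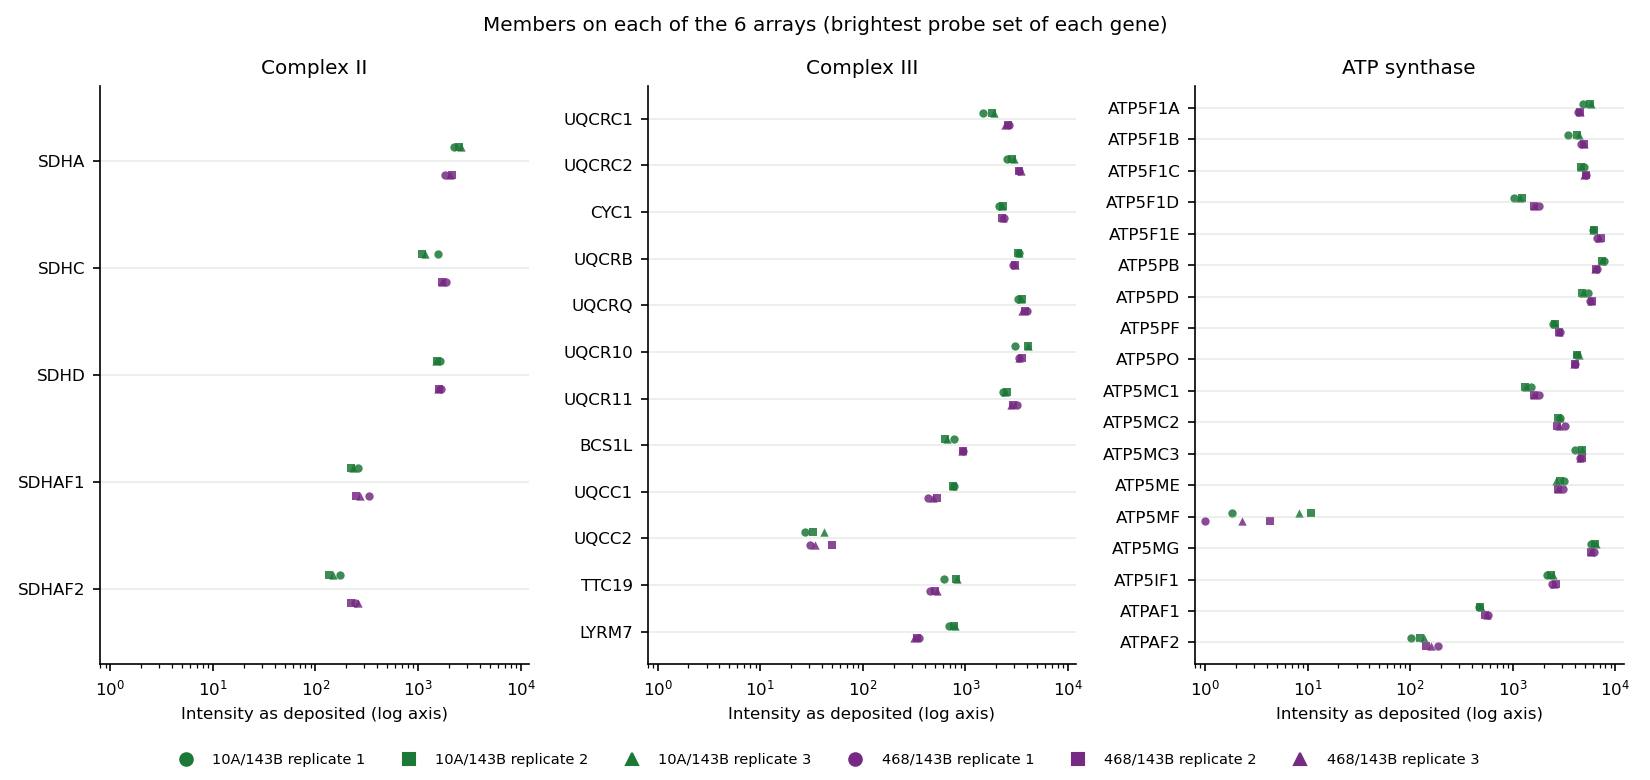
Intensity of the brightest probe set of each measured member on each array (log axis), with 10A/143B in green above and 468/143B in purple below, and marker shape giving the replicate. LYRM7, UQCC1 and TTC19 have the green points to the right of the purple ones, whereas for most subunits the 2 colours lie close together.

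The arrays of the cybrids did not overlap for 24 of the 35 members, 8 with the 10A/143B arrays higher and 16 with them lower. This held for 45.8% of all genes (24.2% higher and 21.6% lower) and 73.5% of the bright ones. Many of these differences were small. The sign of the difference between the replicate 1 arrays was the same as between the averaged replicates 2 and 3 for 31 of 35 members. The exceptions were UQCR10, ATP5MC2, ATP5MC3 and ATP5MG, all close to 0. Assembly factors reached further above 0 than subunits, but not further below it. The 9 measured assembly factors ran from -0.58 to 1.09, with 3 higher and 2 lower, and the 26 subunits and the inhibitor ran from -0.63 to 0.28, with 0 higher and 2 lower. The assembly factors were also dimmer, with a median log2 level of 9.01 against 11.5. Whether the groups differ in spread was not tested.

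**Figure D2:**
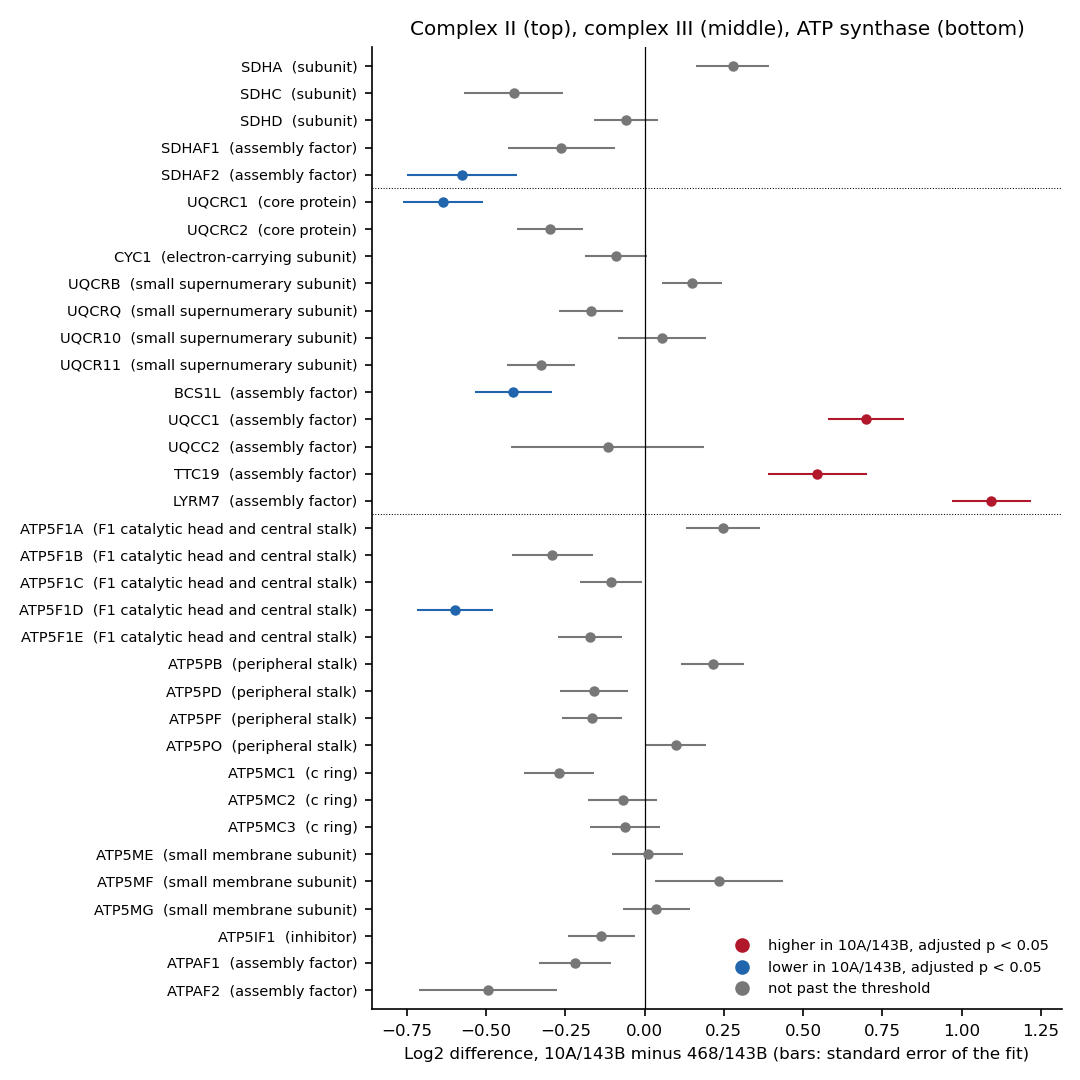
Log2 difference between the cybrids (10A/143B minus 468/143B) for the 35 measured members, with bars for the standard error of the fit, red for genes past the threshold and higher, blue for genes past it and lower. The 3 red points are all assembly factors of complex III, with LYRM7 farthest at 1.09.

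Complex II differed at 1 of its 5 measured genes. SDHAF2, which helps to attach the flavin cofactor to SDHA, read 175, 136 and 148 on the 10A/143B arrays and 244, 224 and 261 on the 468/143B arrays, in the order of replicates 1, 2 and 3 as for every gene below. All 10A/143B arrays lay below all 468/143B arrays, and the gene was 1.49-fold lower (log2 -0.58 ± 0.17, SE, limma adjusted p = 0.0486). This call was narrow. It was lost without 10A/143B replicate 1, 2 or 3 (limma adjusted p = 0.0574, 0.0558 and 0.0523) and without 468/143B replicate 1 or 3 (adjusted p = 0.258 and 0.0817), and with an offset of 64 (adjusted p = 0.0595). SDHAF1, which serves the iron-sulphur subunit, read 258, 223 and 232 against 333, 247 and 271, and these ranges overlapped (log2 -0.26 ± 0.17, adjusted p = 0.354).

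The 3 measured subunits of complex II did not pass. SDHA, the flavoprotein that oxidises succinate, had 2241, 2487 and 2628 in 10A/143B and 1846, 2149.8 and 2062 in 468/143B. Its 10A/143B arrays were all the higher ones, with a difference of 0.28 ± 0.12 that did not pass (adjusted p = 0.137) but did with the replicate number as a block (adjusted p = 0.0287). SDHC, a membrane anchor that binds coenzyme Q and haem, had 1574, 1098 and 1160.1 against 1859, 1710.3 and 1698. Here the 10A/143B arrays were all lower, replicates 2 and 3 most so (-0.41 ± 0.16, adjusted p = 0.105, and 0.00768 with the block). SDHD, the other anchor, had 1629, 1520.2 and 1489 against 1675, 1607 and 1574, with overlapping arrays (-0.06 ± 0.10, adjusted p = 0.754). With the block 3 of the 5 genes of complex II passed, 1 higher and 2 lower.

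SDHC has 7 probe sets, and these did not read alike. Its 4 brightest were lower in 10A/143B. The brightest is the one above, and the next 3 passed when every probe set was tested, with differences of -0.59, -0.54 and -0.80 (limma adjusted p = 0.0172, 0.0239 and 0.0370). The names of all 4 end in a suffix for probes that other transcripts may share. A dim probe set went the other way and passed too, with 161, 149 and 140.1 against 65.3, 69.6 and 78.2 (0.98 ± 0.21, adjusted p = 0.0176). SDHC was the 1 member with probe sets past the threshold in both directions, which 2.02% of the 10523 genes with at least 2 probe sets had, so that it has no single direction on these arrays.

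In complex III 1 of 7 measured subunits was lower and 0 were higher, while of 5 assembly factors 3 were higher and 1 was lower. UQCRC1, a core protein related to mitochondrial processing peptidases, had 1479, 1820.3 and 1898 in 10A/143B and 2647, 2628 and 2419 in 468/143B. All 10A/143B arrays were lower, replicate 1 most so, and the gene was 1.55-fold lower (-0.63 ± 0.13, limma adjusted p = 0.00895). Without 468/143B replicate 1 the difference was -0.60 and did not pass (adjusted p = 0.109), a setting that leaves 1 sample in that group and passes 9.58% of all genes. UQCRC2, the other core protein, had 2557, 2837 and 2957 against 3327, 3304 and 3444. Its arrays did not overlap either (-0.30 ± 0.10, limma adjusted p = 0.0802, and 0.0212 with the block). The second bright probe set of UQCRC2 passed, with 1885, 1771 and 1846 against 2778, 2419 and 2469 (-0.49 ± 0.11, adjusted p = 0.0192). A dim probe set of UQCRC2 went the other way without passing (0.81 ± 0.23, adjusted p = 0.0529). The mean of its probe sets was 0.0047 (adjusted p = 0.984).

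CYC1, the cytochrome c1 that hands electrons to cytochrome c, read 2120.2, 2336 and 2257 in 10A/143B and 2385, 2288 and 2336 in 468/143B, with overlapping arrays (-0.09 ± 0.10, adjusted p = 0.609). The small subunits without redox groups also differed little. UQCR11 had 2320.2, 2539 and 2436 against 3214, 2876 and 2778, all 10A/143B arrays being lower (-0.33 ± 0.11, adjusted p = 0.0668, and 0.0192 with the block). UQCRQ, a subunit near cytochrome b, had 3259, 3541 and 3517 against 3956, 3769 and 3591, a narrower gap without overlap (-0.17 ± 0.10, adjusted p = 0.312). UQCRB, which lies near the coenzyme Q site, had 3304, 3236 and 3350.1 against 2916, 3019 and 3040.3, with the 10A/143B arrays slightly higher (0.15 ± 0.09, adjusted p = 0.340). UQCR10 had 3061, 4096 and 4039.6 against 3350.1, 3541 and 3350.1. Its replicate 1 was the lowest of the 10A/143B arrays and the groups overlapped (0.05 ± 0.14, adjusted p = 0.844).

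All 3 members that were higher in 10A/143B were assembly factors of complex III. LYRM7, a chaperone that holds the iron-sulphur protein of complex III in the matrix before it is inserted, had 695, 771 and 792 in 10A/143B and 349.7, 335 and 313 in 468/143B. Every 10A/143B array stood well above every 468/143B array, and the gene was 2.13-fold higher (1.09 ± 0.12, limma adjusted p = 9.12e-04). Its other 3 probe sets were higher too, by 1.23, 1.19 and 0.79 (adjusted p = 0.0145, 0.0182 and 0.0498). LYRM7 passed in all 19 alternative analyses. TTC19, which helps to clear fragments of the same iron-sulphur protein after its insertion, had 617, 815 and 826 against 452, 505 and 526. Both replicate 1 arrays were the lowest of their group, the groups did not overlap, and the gene was 1.46-fold higher (0.55 ± 0.16, adjusted p = 0.0404). That call was lost without 10A/143B replicate 2 (adjusted p = 0.0547) and without 468/143B replicate 1 or 2 (adjusted p = 0.261 and 0.0553). It was also lost after quantile normalization and median centring (0.47 and 0.46, adjusted p = 0.0867 and 0.0579).

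BCS1L, the ATPase that moves the folded iron-sulphur protein across the inner membrane, went the other way. It had 771, 626 and 662 in 10A/143B and 949, 942 and 936 in 468/143B. The 468/143B arrays lay within a few units of each other and above all 10A/143B arrays, and BCS1L was 1.33-fold lower (-0.41 ± 0.12, limma adjusted p = 0.0432). The call was lost without 10A/143B replicate 2 (adjusted p = 0.0518), without 468/143B replicate 1 (adjusted p = 0.230) and once the dependence on gene length was taken out (-0.28, adjusted p = 0.148).

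UQCC1 and UQCC2 act together at an earlier step, the making of cytochrome b from mitochondrial DNA. UQCC1 had 781, 755 and 755 in 10A/143B and 434, 526 and 481 in 468/143B. The 10A/143B arrays were nearly equal and all higher, and UQCC1 was 1.62-fold higher (0.70 ± 0.12, limma adjusted p = 0.00500). Without 468/143B replicate 1 it did not pass (0.59, adjusted p = 0.0634), nor did it on probe sets without a sharing suffix (0.65, adjusted p = 0.182). Its 3 dimmer probe sets did not pass, with differences of 0.14, 0.65 and 0.76. UQCC2 was measured by a single dim probe set, with 27.1, 32.9 and 41.9 against 30.5, 50.6 and 34.5, so that its difference had a large error (-0.12 ± 0.30, adjusted p = 0.847).

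Promoter sequences were read for the members from RefSeq (GRCh38.p14), in windows from 250 bases before to 50 after a gene's start, and 31 of the 38 had one. NRF1 and the ETS factors such as GABPA are known regulators of respiratory genes. The letters GCGC and TGCGC with any 1 base between them, a form of the NRF1 motif, stood on either strand in the windows of 11 of the 31, against 9.66% of 15842 protein-coding genes. The letters CCGGAAGT, a form of the ETS motif, stood in 9 of the 31, against 6.97%. AAGATGGCG, a form of the YY1 motif, stood in 5, against 3.21%. A gene with several starts was counted if any of its windows held the letters. SDHD and UQCR11 held both the NRF1 and the ETS letters, and 18 of the 31 held at least 1 of the 2. The matches stood in genes that went either way. The stretches below are those of the higher UQCC1 and LYRM7, the lower UQCRC1 and SDHAF2, and UQCR11 as a window with both motifs, printed 5′ to 3′ on the gene's strand with the motif letters in capitals.
UQCC1, chr20:35412030-35412113, minus strand, NRF1 letters at both places: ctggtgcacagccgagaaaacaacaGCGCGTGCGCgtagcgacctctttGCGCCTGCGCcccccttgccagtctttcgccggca
LYRM7, chr5:131170694-131170731, plus strand, ETS letters: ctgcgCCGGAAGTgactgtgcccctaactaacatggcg
UQCRC1, chr3:48609659-48609718, minus strand, NRF1 letters: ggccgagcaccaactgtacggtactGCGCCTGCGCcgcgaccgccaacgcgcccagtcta
SDHAF2, chr11:61429996-61430123, plus strand, ETS letters in both orientations: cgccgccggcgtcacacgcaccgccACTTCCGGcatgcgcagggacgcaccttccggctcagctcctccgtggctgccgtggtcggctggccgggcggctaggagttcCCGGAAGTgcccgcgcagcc
UQCR11, chr19:1605463-1605604, minus strand, ETS letters and then NRF1 letters at both places: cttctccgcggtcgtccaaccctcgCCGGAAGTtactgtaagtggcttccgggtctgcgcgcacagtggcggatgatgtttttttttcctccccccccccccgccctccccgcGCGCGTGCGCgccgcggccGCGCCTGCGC
The first capital of UQCRC1 lies 47 bases before the start, those of UQCC1 lie 115 and 91, and that of LYRM7 lies 245. The UQCC1 and UQCRC1 stretches share the run GCGCCTGCGC, which is the pattern searched for with the same middle base. A match is only a run of letters, and binding was not measured.

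The ATP synthase differed at 1 of 18 genes, ATP5F1D, which encodes the delta subunit of the central stalk. It had 1024, 1226 and 1184 in 10A/143B and 1783, 1596 and 1607 in 468/143B. All 10A/143B arrays were lower, replicate 1 most so, and the gene was 1.51-fold lower (-0.60 ± 0.12, limma adjusted p = 0.00893). Its other probe set, as bright, did not pass. It had 904, 1698 and 1687 against 1287, 1458 and 1389, with replicate 1 lowest and replicates 2 and 3 highest of all arrays (-0.13 ± 0.26, adjusted p = 0.808). The mean of both probe sets was -0.36 (adjusted p = 0.249), and the call was also lost without replicate 1 of 10A/143B (adjusted p = 0.0550) or of 468/143B (adjusted p = 0.116).

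The other genes of the F1 head, where ATP is made, differed by less than 1.25-fold. ATP5F1A, the alpha subunit, had 4804, 5673 and 5833 in 10A/143B and 4329.6, 4545 and 4513 in 468/143B, with all 10A/143B arrays higher (0.25 ± 0.12, adjusted p = 0.192). ATP5F1B, the beta subunit that carries the catalytic sites, had 3468, 4269.9 and 4451 against 4608, 4905 and 4939, with all 10A/143B arrays lower (-0.29 ± 0.13, adjusted p = 0.160, and 0.0272 with the block). Alpha and beta pair in the head, and their messages thus stood on opposite sides of 0 without passing in the test used here. ATP5F1C, the gamma shaft that turns inside the head, had 4905, 4576 and 4640.3 against 5149, 5221 and 4939, a narrow gap (-0.10 ± 0.10, adjusted p = 0.538). ATP5F1E, the epsilon subunit at the foot of the shaft, had 6039, 6165 and 5997 against 6562, 7231 and 6985, also without overlap (-0.17 ± 0.10, adjusted p = 0.30).

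The peripheral stalk keeps the head from turning with the shaft, and 0 of its 4 genes passed in the limma test (0 also at an unadjusted p under 0.05). ATP5PB, the b subunit, had 7697, 7383 and 7434 in 10A/143B and 6608, 6517 and 6295 in 468/143B, and ATP5PO, which joins the stalk to the top of the head, had 4269.9, 4240.4 and 4390.0 against 4012, 4068 and 3929. In both the 10A/143B arrays were all higher (0.21 ± 0.10 and 0.10 ± 0.09, adjusted p = 0.181 and 0.544). ATP5PD, the d subunit, had 5442, 4771 and 4871 against 5634, 5873 and 5753, and ATP5PF, coupling factor 6, had 2452, 2592 and 2592 against 2856, 2798 and 2817. In these the 10A/143B arrays were all lower (-0.16 ± 0.11 and -0.17 ± 0.10, adjusted p = 0.365 and 0.288). On their brightest probe sets the stalk genes were thus split evenly by sign, all within 0.22 of 0 on the log2 scale. A dim second probe set of ATP5PB, with all 10A/143B arrays higher, read 0.71 ± 0.27 and did not pass (limma adjusted p = 0.129).

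The c subunit that forms the rotating ring is encoded by 3 genes whose mature proteins are the same, and none of them passed. ATP5MC1 had 1499, 1314 and 1342 in 10A/143B and 1795, 1618 and 1618 in 468/143B, all 10A/143B arrays being lower (-0.27 ± 0.11, limma adjusted p = 0.134, and 0.0384 with the block). ATP5MC2 had 2876, 2778 and 2876 against 3236, 2721 and 2817 and ATP5MC3 had 4039.6, 4738 and 4738 against 4513, 4705 and 4545. Both overlapped between the cybrids (-0.07 ± 0.11 and -0.06 ± 0.11, adjusted p = 0.732 and 0.767). Differences between the 3 genes were not tested.

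Of 3 small membrane subunits of the kind that help the ATP synthase to dimerise, 0 passed in the limma test (0 also at an unadjusted p under 0.05), and the arrays overlapped in all. ATP5ME, subunit e, had 3126, 2856 and 2647 in 10A/143B and 3083, 2759 and 2740.1 in 468/143B (0.01 ± 0.11, adjusted p = 0.967). ATP5MG, subunit g, had 5793, 6339 and 6517 against 6123, 5753 and 5793 (0.04 ± 0.11, adjusted p = 0.860), and its other 3 probe sets lay between -0.0049 and 0.06. ATP5MF, subunit f, was represented only by a probe set at the floor of the arrays (1.82, 10.7 and 8.28 against 1.00, 4.26 and 2.30), because its other probe set names a second gene, so its level is not known here. ATP5IF1, the inhibitor that stops the enzyme from running backwards, had 2135, 2336 and 2452 against 2402, 2647 and 2504, with overlap (-0.14 ± 0.11, adjusted p = 0.443).

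The chaperones of the F1 head, ATPAF1 for beta and ATPAF2 for alpha, did not pass on their brightest probe sets. ATPAF2 had 101, 125 and 135 in 10A/143B and 187, 143 and 159.8 in 468/143B, without overlap, but its difference came mostly from replicate 1 (-0.80 there and -0.19 in the averaged replicates 2 and 3, with -0.49 ± 0.22 and an adjusted p of 0.160 overall). ATPAF1 had 471, 478 and 491 against 568, 541 and 556, a narrow gap downward (-0.22 ± 0.11, adjusted p = 0.237). Its dimmer probe set showed the largest difference of all 77, with 170.1, 142 and 147 against 20.1, 22.0 and 34.5. That probe set was 4.34-fold higher in 10A/143B (2.12 ± 0.26, limma adjusted p = 0.00249). ATPAF1 therefore has no settled direction.

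Other members also had a dim probe set that stood apart from their bright ones. ATP5F1C was close to 0 on 3 bright probe sets, but a dim one read 140.1, 145 and 151 in 10A/143B and 63.6, 28.4 and 42.5 in 468/143B (1.33 ± 0.28, adjusted p = 0.0166). ATP5MC3 likewise had a dim probe set with 251, 194 and 186 against 115, 87.4 and 91.8 (1.00 ± 0.22, adjusted p = 0.0191), whereas its other bright one read -0.28. Of the 49 member probe sets with a mean log2 level of at least 8, 4 were higher and 6 lower, with a median difference of -0.13, and 17 had a positive difference. Of the 28 dimmer ones 5 were higher and 0 lower, with a median of 0.27, and 18 had a positive difference. When every probe set was tested, 11.7% of all 41091 were higher and 6.14% lower, shares that were not split by level. Over all probe sets the medians were 0.04 for those of at least 8 and -0.0035 for the dimmer ones, and 52.5% and 49.5% had a positive difference. Of the 23 members with at least 2 probe sets, 14 had both signs among them. Which part of a gene each probe set reads was not analysed here.

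**Figure D3:**
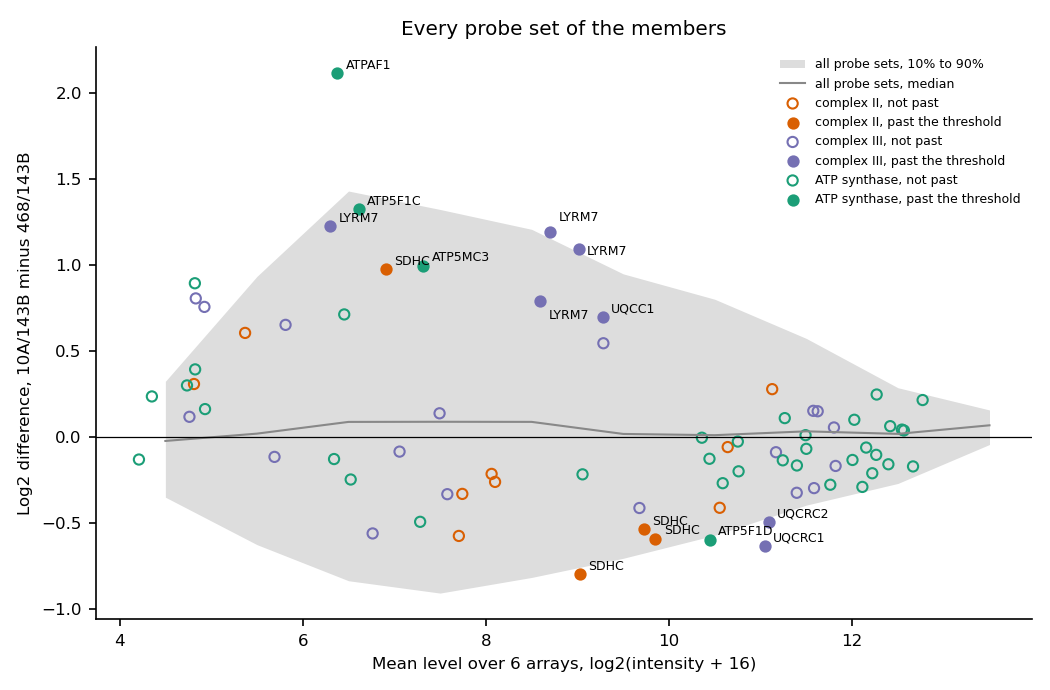
Log2 difference (10A/143B minus 468/143B) against mean log2 level for all 77 probe sets of the members, filled where past the threshold and named by gene, over the 10% to 90% range of all probe sets at that level (grey). ATPAF1 stands highest at 2.12, and the named points below a level of 8 all lie above 0.

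**Figure D4:**
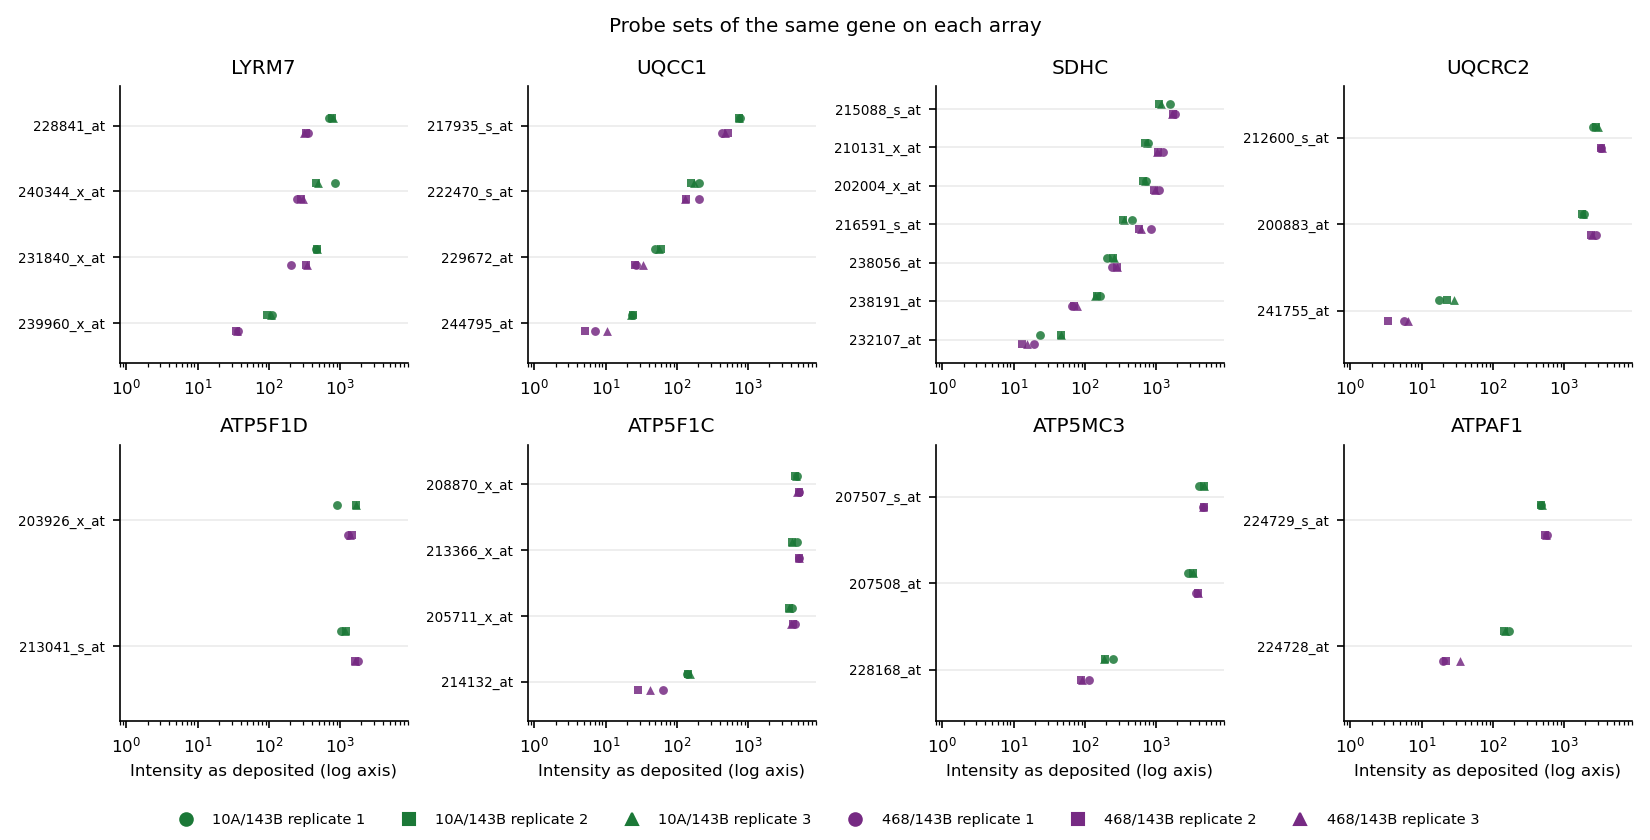
Intensity on each array (log axis) of every probe set of 8 members, 10A/143B in green and 468/143B in purple, brightest probe set at the top. In LYRM7 and UQCC1 green lies to the right throughout except where replicates meet on 1 UQCC1 probe set, whereas in SDHC, ATP5F1C, ATP5MC3, UQCRC2 and ATPAF1 the dimmest probe sets lie to the right and brighter ones to the left or level, and in ATP5F1D the probe sets differ.

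The members' genes are short. Their median length was 10.6 kb, against 28.5 kb for all protein-coding genes measured, and 28 of the 35 were shorter than the latter. With the trend of difference on gene length removed, the medians were -0.14 for complex II, 0.0021 for complex III and -0.026 for the ATP synthase, against -0.26, -0.10 and -0.12 without this step. LYRM7, UQCC1, UQCRC1 and ATP5F1D still passed. All 3 medians were nearer to 0 after it. The members lie on 18 chromosomes. The 3 on chromosome 19, SDHAF1, UQCR11 and ATP5F1D, had negative differences, and the median of all genes on that chromosome was -0.16. Chromosome 16, which holds UQCRC2, had a lower median, -0.21. Chromosome 17, at -0.06, held members of both signs, with TTC19 positive and ATPAF2 negative. The part of chromosome position was not tested.

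Other subunits and assembly factors of these complexes made up a further list. Of 13 measured, 6 were lower in 10A/143B and 2 higher, with a median of -0.53, and with the block 7 were lower and 2 higher. A mean log2 level of at least 8 was reached by 10 of the 13. The shares to set beside this and the lists below are 8.90% lower and 13.8% higher for all genes. For the bright genes they are 20.0% lower and 27.7% higher. With the block 31.6% of all genes and 60.6% of the bright ones passed. SDHAF4, a chaperone of SDHA, had 171, 147 and 135 in 10A/143B and 541, 357 and 319.6 in 468/143B, far below in every array (-1.37 ± 0.23, limma adjusted p = 0.00406). UQCC5, an assembly factor of complex III, had 105, 49.2 and 78.8 against 197, 205 and 191 (-1.13 ± 0.25, adjusted p = 0.0149, and 0.140 without 468/143B replicate 1), but a dimmer probe set passed the other way (0.73), so its direction is not settled. ATPSCKMT, the methyltransferase of the c subunit, was higher, with 169, 161 and 131 against 38.3, 64 and 61.4 (1.40 ± 0.27, adjusted p = 0.00830). That call was lost without replicate 1 of 10A/143B (adjusted p = 0.0727) or of 468/143B (adjusted p = 0.0843). TMEM70, which helps to build the c ring into the ATP synthase, was higher as well, with 838, 765 and 832 against 523, 458 and 413 (0.76 ± 0.13, adjusted p = 0.00425), while its 2 dim probe sets did not pass and lay on either side of 0 (0.56 and -0.26). The mean of its probe sets did not pass either (0.35, adjusted p = 0.193).

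Genes that make coenzyme Q, which carries electrons from complex II to complex III, were lower or did not pass. Of 13 measured 7 were lower and 0 higher, with a median of -0.64. Among all genes 8.90% were lower and 22.7% passed in either direction. Among the bright genes, to which 8 of the 13 belong, 20.0% were lower and 47.7% passed. COQ4, of the complex that builds the coenzyme Q ring, had 124, 134 and 133 in 10A/143B and 452, 405 and 402 in 468/143B. It was 3.06-fold lower (-1.61 ± 0.15, limma adjusted p = 5.24e-04), and its dimmer probe set passed too, at -0.95. PDSS2, of the enzyme that makes the side chain, had 153, 156 and 147 against 380.0, 365 and 345 (-1.19 ± 0.15, adjusted p = 0.00129). A second probe set of PDSS2 did not pass and had a positive difference (0.65 ± 0.20, adjusted p = 0.0680), and the mean over its probe sets was -0.18 (adjusted p = 0.591). Among 8 other dehydrogenases that feed coenzyme Q, 2 were lower and 1 higher (median -0.40), and 4 were lower and 1 higher with the block. DHODH, the pyrimidine enzyme without which cells need uridine, had 75.6, 83.3 and 88.6 against 187, 201 and 211 (-1.14 ± 0.20, adjusted p = 0.00576, and 0.0755 without 468/143B replicate 1). A dim probe set of DHODH read 0.35, and the mean of its 3 probe sets did not pass (-0.48, adjusted p = 0.158). SQOR, which oxidises sulphide, was lower (-0.57 ± 0.12, adjusted p = 0.0113, and 0.0716 without 10A/143B replicate 1). ETFDH, which brings electrons from fatty acid oxidation, was higher (1.00 ± 0.30, adjusted p = 0.0492). That call was lost whichever array was left out (limma adjusted p from 0.0523 to 0.0668 without replicate 2 or 3 of either cybrid). Without replicate 1 of 10A/143B or of 468/143B the difference was 1.20 or 1.00. The dimmer probe set of ETFDH passed in the same direction when every probe set was tested (1.39, limma adjusted p = 0.0177).

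Cytochrome c itself, CYCS, which accepts the electrons of complex III, was higher, with 5557, 5833 and 5833 in 10A/143B and 4329.6, 4421 and 4096 in 468/143B (0.41 ± 0.10, limma adjusted p = 0.0193). HCCS, which attaches haem to cytochrome c and c1, was lower (-0.46 ± 0.12, adjusted p = 0.0256). Without 468/143B replicate 1 neither passed (adjusted p = 0.248 and 0.166), and neither did with the mean of probe sets (0.49 and -0.15, adjusted p = 0.116 and 0.463). The second probe set of HCCS read 0.16. Of the 3 measured carriers that exchange ADP, ATP and phosphate, SLC25A4 was higher (0.65 ± 0.11, adjusted p = 0.00517, and 0.0507 without 468/143B replicate 1) and the other two lay at 0.04. Of 12 genes of iron-sulphur cluster assembly, which supply complexes II and III, 2 were lower and 0 higher (median -0.27), with 5 lower under the block. The 2 were LYRM4 (-0.55 ± 0.12, adjusted p = 0.0137) and ISCA2 (-0.39 ± 0.11, adjusted p = 0.0335), both lost without replicate 1 of either cybrid (adjusted p from 0.0669 to 0.125). Of 7 genes of MICOS, which shapes the cristae where the ATP synthase sits, CHCHD6 (-0.61 ± 0.14, adjusted p = 0.0177) and APOO (-0.55 ± 0.14, adjusted p = 0.0244) were lower and APOOL (1.03 ± 0.12, adjusted p = 9.47e-04) higher. Without 468/143B replicate 1, CHCHD6 and APOO did not pass (adjusted p = 0.158 and 0.155). Of 4 probe sets of APOOL 1 had a negative difference (-0.68, adjusted p = 0.0543). Besides the brightest, the positive ones read 0.86 and 0.64 (adjusted p = 0.0144 and 0.0849). The mean of the 4 did not pass (0.46, adjusted p = 0.0570).

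**Figure D5:**
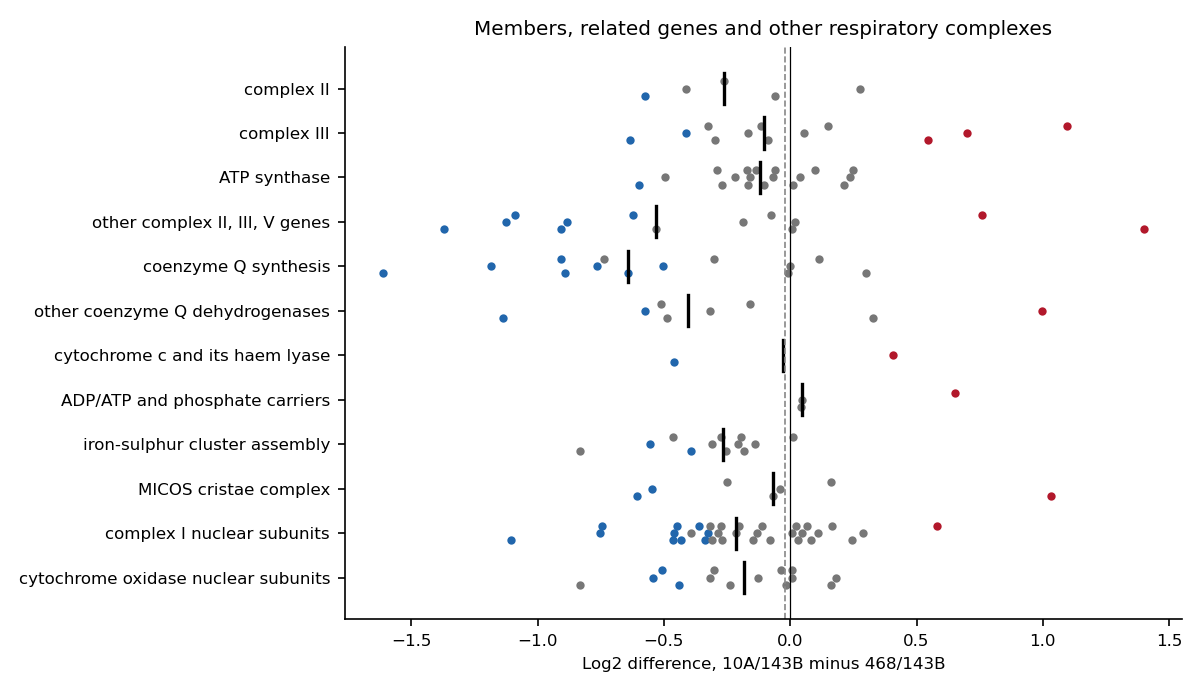
Log2 difference (10A/143B minus 468/143B) of each measured gene in the complexes, in related lists and in the other respiratory complexes, red and blue for genes past the threshold and higher or lower, black bars for the median of each list and a dashed line for the median of all genes at -0.02. Points are spread vertically only for legibility, and the coenzyme Q list has the lowest median, at -0.64.

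Of the mitochondrially encoded partners only ATP6 was analysed here. Its bright probe set had 9476, 8659 and 8599 in 10A/143B and 7750.1, 8659 and 8422 in 468/143B (0.15 ± 0.11, limma adjusted p = 0.412), and its dim one 120.3, 119 and 97.0 against 145, 249 and 265 (-0.69 ± 0.27, adjusted p = 0.136), so that the probe sets differ in sign. The nuclear subunits of the other proton-pumping complexes stood at medians of -0.22 for complex I, with 10 of 33 lower and 1 higher (14 and 2 with the block), and -0.19 for cytochrome oxidase, with 3 of 14 lower and 0 higher (6 lower with the block). The corresponding medians were -0.26 for the 5 genes of complex II, -0.10 for the 12 of complex III and -0.12 for the 18 of the ATP synthase. Beside the counts above, 8.90% of all genes were lower and 13.8% higher, and 20.0% and 27.7% of the bright ones. With the block 31.6% of all genes and 60.6% of the bright ones passed. Differences between the complexes were not tested.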

How the data were processed

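Messenger RNA was measured on 6 arrays, 3 per cybrid, grouped and numbered by source name. The authors' deposited values are linear intensities, with how they were summarised and scaled not given in the sources used here. They ran from 1 to 13125, in steps of 0.01 on the log2 scale. No further scaling was applied before log2(intensity + 16), so fold changes understate those of dim genes. Without detection calls, a dim value cannot be told from background, and precision is limited by how few arrays there are.

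The platform table gave 1 symbol for 41091 probe sets, of which 41037 were updated through Entrez identifiers to RefSeq (GRCh38.p14), used also for chromosomes, relative gene lengths and promoters. A gene's value is that of its brightest probe set by mean log2 level. Replicates 2 and 3 of each group were averaged on the log2 scale. The groups' means were tested with limma (version 3.58.1, R 4.3.3, lmFit and trended eBayes), with Benjamini-Hochberg adjustment over 19775 genes at 0.05. Errors are standard errors (SE) of that fit. A second fit covered all 41091 probe sets. Scripts were tested on simulated data. Same-numbered arrays deviated together from their group means (correlations over genes of 0.295, 0.182 and 0.123 for replicates 1, 2 and 3), so the fit with the replicate number as a block is given where it changes a call. The labels do not say what the numbers share. Replicate 2 of 10A/143B also correlated with replicate 3 of 468/143B (0.153), and replicate 3 of 10A/143B with replicate 2 of 468/143B (0.161). The latter is above the 0.123 of the arrays numbered 3, so these values do not settle a pairing by number for replicates 2 and 3.

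Members and lists were chosen with earlier results of these data known. All measured members are named. In each related list up to 2 genes past the threshold with the largest change in each direction are named, besides ATP6 and the markers. Alternatives covered duplicates, blocking, offset, scaling, a level filter, the intensity trend, the choice of probe set, gene length and each array left out.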

Additional observations from a re-analysis of the deposited data

How the results depend on the processing

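Counts of members past the threshold were 1 for complex II, 5 for complex III and 1 for the ATP synthase, and their medians were -0.26, -0.10 and -0.12. The replicate block gave 3 in complex II and 3 in the ATP synthase, and 3 and 8 on 6 separate arrays. Separate arrays without pairing gave 3 and 7. An offset of 64 gave 0 in complex II. Without the intensity trend the counts were 0, 2 and 0, and with the gene length trend removed complex II had 0 and complex III had 3. The mean of probe sets gave 3 in complex III (2 higher and 1 lower). When every probe set was tested apart, 4 probe sets passed in complex II, all of SDHC (1 higher and 3 lower), and 4 in the ATP synthase (3 higher and 1 lower). In the ATP synthase, where 0 genes were higher and 1 lower, probe sets without a sharing suffix gave 2 higher and 0 lower (2 in all), the mean of probe sets 1 higher and 0 lower, and median centring 0 higher and 2 lower. Leaving out 1 array, which for a replicate 1 leaves 1 sample in that group and takes its spread from the other group, gave 0 to 1, 1 to 5 and 0 to 1.

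The median of complex II was -0.40 with quantile normalization, -0.35 with median centring, -0.14 with the mean of probe sets and -0.14 with the gene length trend removed. For complex III it was -0.19 with quantile normalization, -0.19 with median centring, 0.12 over every probe set and 0.0021 with the length trend removed. For the ATP synthase these were -0.15, -0.21, -0.062 and -0.026, with 0.046 for the mean of probe sets and -0.067 without sharing suffixes. With 1 array left out they ran from -0.35 to -0.089, -0.13 to 0.0017 and -0.14 to -0.10. Over all genes the median was -0.02 as deposited, -0.08 after quantile normalization and -0.11 after median centring, and 60.8%, 49.8% and 50.9% of the calls were higher.

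Differences that changed sign belonged mostly to genes that had not passed. With the mean of probe sets they became 0.12 for SDHD, 0.0047 for UQCRC2, -0.25 for UQCR10, 0.22 for ATP5F1C, 0.36 for ATP5F1E, 0.11 for ATP5MC2, 0.22 for ATP5MC3, -0.0086 for ATP5ME, 0.95 for ATPAF1, -0.27 for ATP6 and 0.026 for UQCC5. Without sharing suffixes they became -0.33 for UQCRB, -0.56 for UQCR10, -0.13 for ATP5F1A, 1.33 for ATP5F1C, 0.30 for ATP5MC2, -0.0049 for ATP5MG, 2.12 for ATPAF1, -0.69 for ATP6, -0.26 for TMEM70 and 0.16 for HCCS. With the length trend removed they became 0.057 for SDHD, 0.038 for CYC1, 0.0054 for ATP5MC2 and 0.068 for ATP5MC3. Median centring gave -0.035 for UQCR10, -0.080 for ATP5ME and -0.052 for ATP5MG, and quantile normalization gave -0.038 for ATP5ME. With 1 array left out UQCC2 ran from -0.28 to 0.036, ATP5MC2 from -0.082 to 0.042, ATP5MC3 from -0.080 to 0.052 and ATP5ME from -0.082 to 0.092. UQCC5, TMEM70 and HCCS had passed. The causes were not tested. Over all named genes and alternatives 34 values changed sign, whether or not their call changed too. Among the values that kept their sign, 73 lost and 36 gained a call, and 855 did neither. Of the named genes none lost its call under the block. The 2 samples per group limit what can pass, and dim probe sets have the largest errors.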
